A study of Mus musculus with 6 samples.

Results

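The nuclear-encoded subunits of the mitochondrial respiratory chain and ATP synthase were described in germinal center (GC) B cells of mice with and without the SUMO protease gene Senp1. Members were chosen by gene name alone: protein-coding genes whose symbol begins with Ndufa, Ndufb, Ndufc, Ndufs or Ndufv and a digit, with Uqcr, with Cox and a digit from 4 to 8, or with Atp5, together with Cyc1 and Sdha, Sdhb, Sdhc and Sdhd. This rule found 82 of the 19680 genes in the table, of which 37 are named for complex I, 4 belong to complex II, 9 to complex III, 15 are named for complex IV and 17 for complex V. A further 4 rows with such names were processed pseudogenes and were left out. RNA came from splenic B cells sorted as B220+ CD38- FAS+ 14 days after C57BL/6 mice aged 6 to 8 weeks received 100 µg of the hapten-protein conjugate NP-CGG intraperitoneally. The control mice (WT, 3 libraries) carried Senp1flox/flox without Cre, and the conditional knockout mice (cKO, 3 libraries) carried Senp1flox/flox with Cγ1-Cre, a Cre expressed from an immunoglobulin heavy chain constant locus in B cells that have been activated, so that both groups share the floxed alleles and only activated B cells delete them. The libraries are called WT1, WT2, WT3, cKO1, cKO2 and cKO3. Separate mice are not stated for the 3 libraries of a group, and the spread that the p-values rest on may be technical.

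The respiratory chain sits in the inner mitochondrial membrane. Complex I oxidizes NADH and complex II oxidizes succinate, both pass electrons to ubiquinone, complex III hands them to cytochrome c and complex IV gives them to oxygen. Complexes I, III and IV pump protons, and complex V, the ATP synthase, lets the protons flow back to make ATP. Most subunits are encoded in the nucleus and imported, and a small set at the core of complexes I, III, IV and V is encoded by mitochondrial DNA, so the chain draws on both genomes. Nuclear subunit genes are known targets of the transcription factors NRF1 and GABP. GC B cells divide fast and are known to use oxidative phosphorylation.

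The members lie on 19 chromosomes, with at most 8 on any of them, so what they share in sequence was sought in their promoters. RefSeq promoter windows (GRCm38.p6, 250 bases before to 50 after the start of transcription) were matched by gene identifier, or else by symbol, for 64 of the 82 members. A gene was counted if any of its windows held a match. The palindromic NRF1 core CGCATGCG was present in 9 of the 64 members (14.1%), compared with 2.07% of all 27025 genes with windows. The GABP motif CCGGAAGT, searched on both strands, was present in 5 members (7.81%) and in 4.31% of these genes. The YY1 core AAGATGGCG, also searched on both strands, was present in 7 members (10.9%) and in 1.64% of the genes. TATAAA, the core of a TATA box, was present on either strand in 5 members (7.81%) and in 15.7% of the genes. No matches of the first 3 motifs overlapped each other. The 27025 genes were not filtered by expression or gene type, whereas the members are protein-coding and most are expressed here. The NRF1 and YY1 cores were taken after longer forms had been searched, and the differences in share were not tested. A match is a description of these letters and not evidence of binding. The windows below hold NRF1 matches (capitals) that lie upstream of the start, for the ATP synthase genes Atp5g2, Atp5j and Atp5k, the complex IV gene Cox6a1 and the complex I gene Ndufa11, each with 25 flanking bases on either side, written 5′ to 3′ on the gene's strand.
Atp5g2, chr15:102671056-102671113, minus strand: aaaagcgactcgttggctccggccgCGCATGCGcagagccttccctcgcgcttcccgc
Atp5j, chr16:84835091-84835148, minus strand: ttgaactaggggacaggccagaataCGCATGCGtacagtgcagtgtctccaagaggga
Atp5k, chr5:108434416-108434473, minus strand: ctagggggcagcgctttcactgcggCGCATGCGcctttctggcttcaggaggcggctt
Cox6a1, chr5:115349087-115349144, minus strand: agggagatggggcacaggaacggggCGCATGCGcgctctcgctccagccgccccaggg
Ndufa11, chr17:56717678-56717735, plus strand: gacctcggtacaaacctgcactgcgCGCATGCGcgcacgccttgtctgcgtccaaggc
In these windows the first motif base lies 41, 147, 49, 161 and 59 bases before the start, in the order listed. The other NRF1 matches were in Atp5l, Ndufa8, Uqcr11 and Uqcrc1. The following pair, of Atp5h in the peripheral stalk of ATP synthase and of the small complex III subunit Uqcr11, holds GABP matches in capitals, the first read as the reverse complement.
Atp5h, chr11:115419926-115419983, minus strand: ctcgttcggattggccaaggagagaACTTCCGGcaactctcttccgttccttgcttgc
Uqcr11, chr10:80406855-80406912, minus strand: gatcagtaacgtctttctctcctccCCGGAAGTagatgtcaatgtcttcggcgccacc
Of the 7 YY1 matches 5 were in complex I genes (Ndufa9, Ndufc1, Ndufs4, Ndufs6 and Ndufs7), and these, like that of Atp5j2, lay within the first 50 bases after the start. The match of Atp5j lay upstream, in the window below, where it is in capitals.
Atp5j, chr16:84835031-84835089, minus strand: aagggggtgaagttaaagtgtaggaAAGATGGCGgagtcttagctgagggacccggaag

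The deposited values are counts normalized by a size factor per library, from which whole reads could be recovered. The WT libraries held 5160902 to 10339054 reads and the cKO libraries 3019152 to 9657005, and WT1 and cKO1 were the deepest of their groups. Senp1 (chr15:98038744-98093744) had normalized counts of 915, 868 and 891 in WT and 373, 425 and 398 in cKO, with no overlap. Its log2 difference was -1.16 (SE 0.12), which missed the threshold in limma (adjusted p = 0.111) and passed it in DESeq2 on the recovered reads (adjusted p = 2.78e-09). Summed GC B cell markers reached 11911 to 13000 normalized counts in the WT libraries and 7879 to 11528 in cKO, and naive or memory B cell markers 2463 to 5317 and 4124 to 9854. T cell markers summed to 1165 in cKO2 and to 85.8 to 273 in the other libraries. The share of these markers in the values below was not tested, and in sorted bulk RNA fewer cells of a type and less RNA per cell cannot be told apart.

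The respiratory chain transcripts took up 1.16% of all reads in WT1, 0.975% in WT2 and 0.848% in WT3, and 1.16% in cKO1, 0.785% in cKO2 and 0.803% in cKO3. The ranges of the groups overlapped, and both replicate 1 libraries stood above the other 4. All reads here include those of mitochondrial DNA genes, which took up 2.71%, 7.92% and 9.83% in WT1, WT2 and WT3. In cKO1, cKO2 and cKO3 these genes took up 3.66%, 12.3% and 19.1%. A larger mitochondrial share lowers the share left for nuclear genes, and shares without mitochondrial reads were not computed. Of the 82 members 79 had a mean of at least 1 normalized count and entered the test, and 77 had a mean of at least 10. Those 77 ranged from 24.9 to 6773 normalized counts in the mean of the 6 libraries.

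Corrected for transcript length, the complexes differed in level. Per kilobase of 1 representative transcript per gene, the 77 members had a median of 526 normalized counts, compared with 68.2 for 9896 protein-coding genes with a mean of at least 10. The members' transcripts are short, with a median length of 875 bases against 3003. The median level per kilobase was 303 for the 36 genes named for complex I, 444 for the 4 of complex II and 613 for the 9 of complex III. It was 975 for the 11 named for complex IV and 1013 for the 17 named for complex V. The order of the 5 medians was the same in each library except cKO1, where complex IV stood at 1096 and complex V at 1090. The highest level per kilobase was that of Atp5b (3535), the catalytic beta subunit of the F1 head, followed by its partner alpha subunit Atp5a1 (2549). Cox4i1 (2276), the ubiquitous form of a regulatory complex IV subunit, Uqcrh (1897), the hinge protein of complex III, and Cox6b1 (1857), which faces the intermembrane space in complex IV, came next. The lowest was Ndufb2 (5.87), an accessory subunit of complex I, whose representative transcript is 4371 bases long. Atp5s (15.5), which carries an ATP synthase name but is a coupling factor and not a subunit, was the next lowest. Ranks of the 77 levels in any library and in the mean of the other 5 had Spearman correlations of 0.983 to 0.990 across genes, so the order of the genes was much the same in every library. Genes are not independent replicates, and the libraries share gene lengths.

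**Figure D1:**
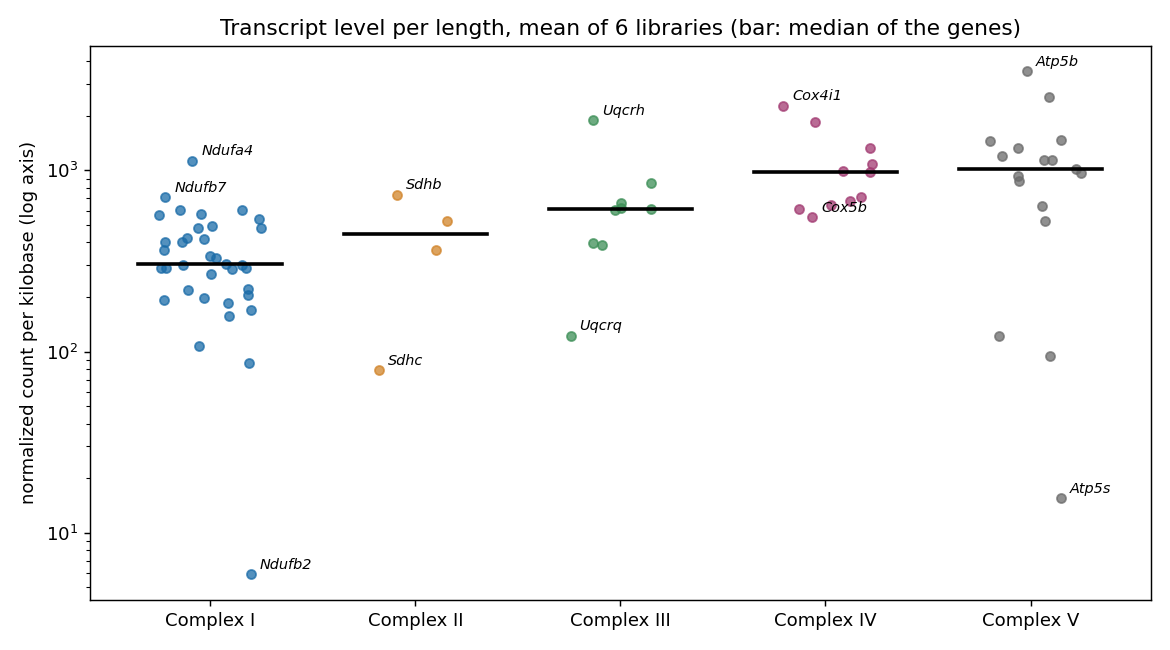
Level of each of the 77 respiratory chain genes with a mean of at least 10, as normalized count per kilobase of transcript on a log axis, mean of 6 libraries, by complex; bars are medians over genes. The medians go from 303 in complex I to 1013 in complex V, with Atp5b highest at 3535 and Ndufb2 lowest at 5.87.

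The abundance was shared out among the complexes almost alike in every library. Complex V took 44.4% to 46.3% of the members' summed normalized counts, complex I 21.5% to 22.8%, complex IV 15.7% to 16.5%, complex III 10.01% to 10.9% and complex II 5.27% to 6.06%. Atp5a1 and Atp5b together made up 25.1% ± 0.395 in WT and 24.2% ± 0.206 in cKO (SD, n = 3 libraries each), and the libraries did not overlap. The share of complex II stood at 5.94%, 6.06% and 5.97% in WT, and at 5.57%, 5.78% and 5.27% in cKO, which also do not overlap. The shares of complexes I, III, IV and V overlapped between the groups. Among single genes, 5.28% of all tested had lower values in cKO without overlap, but no such background was computed for summed shares. The shares are parts of 1 total, and their differences between the groups were not tested. These shares are of transcripts not corrected for length.

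The cKO libraries were compared with WT by limma on log2(normalized count + 1) over 14678 genes. No member passed Benjamini-Hochberg adjusted p of 0.05 in limma in either direction (background over all genes tested 0% in each direction), and none of the 79 had an unadjusted p under 0.05, compared with 2.98% of all tested genes higher in cKO and 2.17% lower. On the recovered reads edgeR called none of 10786 genes (0%; 5.66% had an unadjusted p under 0.05) and DESeq2 called 20 of 13566 (0.147%; 2.84% had an unadjusted p under 0.05), none of them a member. The authors' deposited table calls 0.197% of the 11658 genes for which it has an adjusted p, at a threshold of 0.05, and gives no member a call. Groups of members did not overlap for 2 genes with higher values in cKO, Ndufb4 and Atp5s, against a background of 6.28% of all tested genes, and for 3 genes with lower values, Ndufs1, Atp5c1 and Atp5f1, against 5.28%. These counts are 2 and 3 of 79 and lie below or near the background.

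The estimates were small, and the intervals of most members stayed within 2-fold. Log2 differences of the 77 members with a mean of at least 10 ran from -0.24 (Ndufa9) to 0.37 (Ndufb4), with a median of -0.04 against -0.01 for all 10720 genes of that level. The mean was lower in cKO for 45 of the 77, where 50.2% of all tested genes were lower and 49.8% higher. The 95% intervals stayed within 2-fold in either direction for 76 members and within 1.5-fold for 49. Their median standard error was 0.18, against 0.22 for all genes of that level. The exception was Atp5s, whose interval ran up to 1.05. A missed threshold does not show that the groups were alike. The intervals give the size of change that could have gone unseen only if the libraries of a group are separate mice. Separate mice are not stated. The sign of the members' median turned when either WT1 (0.07) or cKO2 (0.07) was left out, and without cKO1 the median was -0.16.

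**Figure D2:**
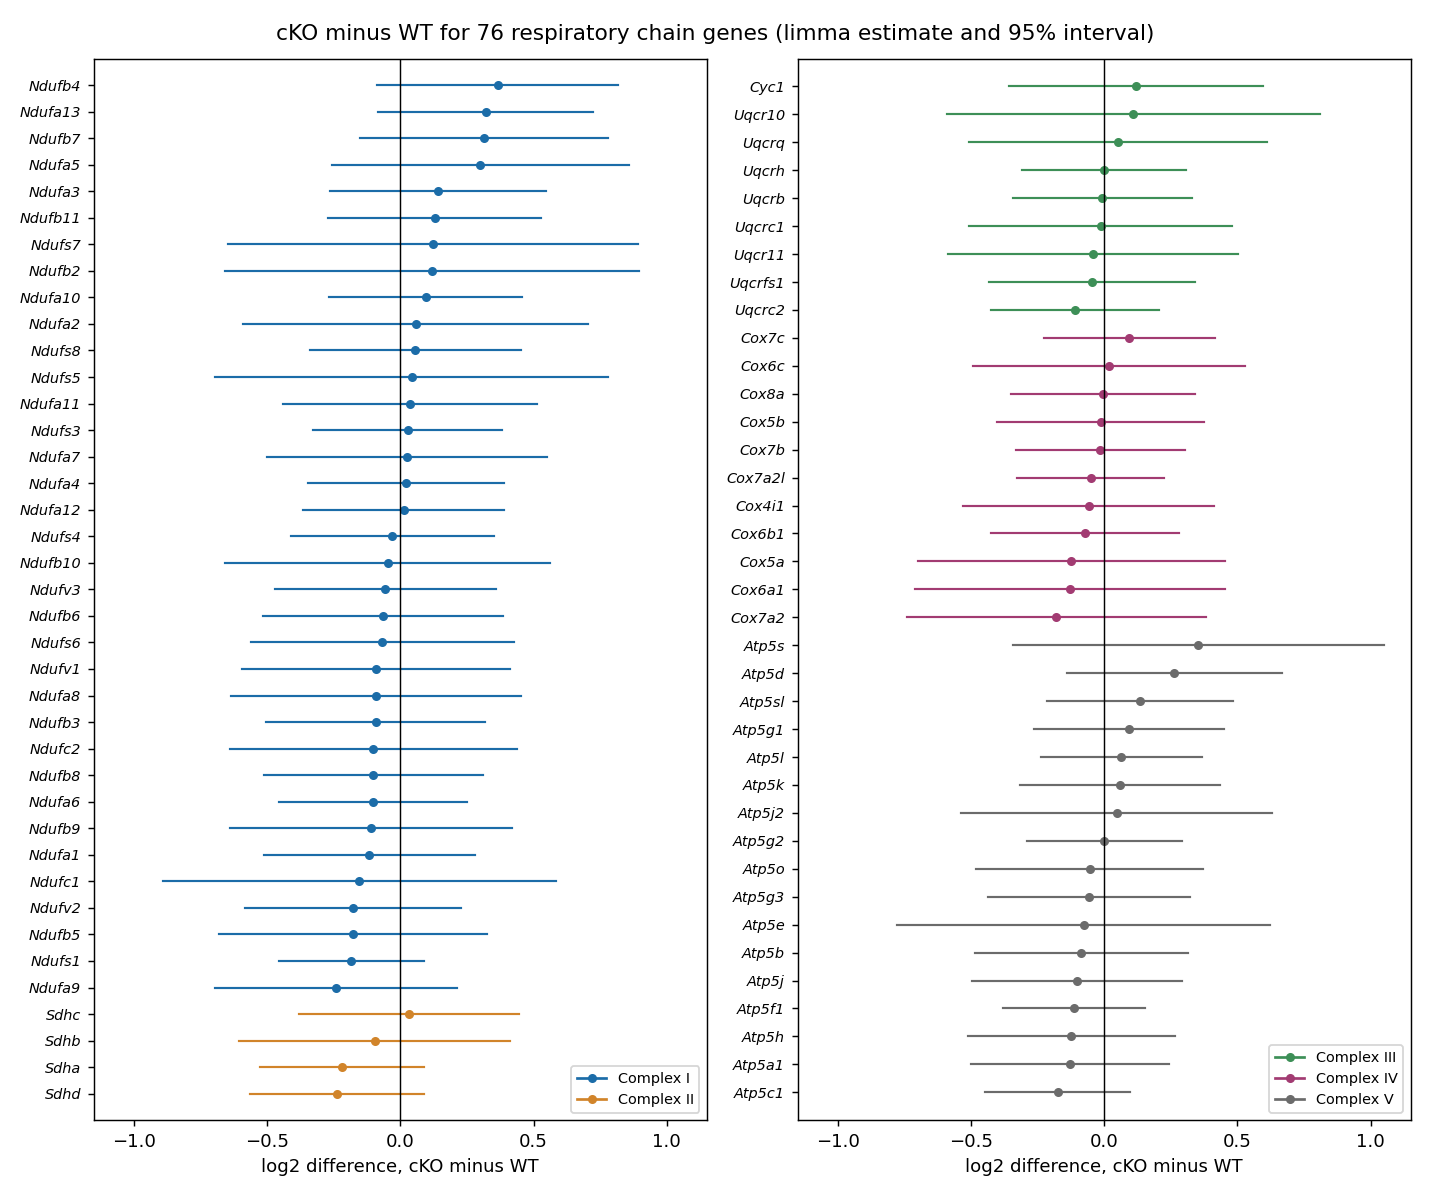
Log2 difference, cKO minus WT, of 76 respiratory chain genes, ordered within complexes I to V, with limma's 95% interval as a line. Every interval spans 0, and the estimates lie between -0.24 (Ndufa9) and 0.37 (Ndufb4).

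Complex I held both of the members with the smallest p of the whole set. Ndufb4 (chr16:37647170-37654453), an accessory subunit of the membrane arm, had normalized counts of 97.6, 86.2 and 87.1 in WT and 98.7, 133 and 121 in cKO. The lowest cKO library, cKO1, exceeded the highest WT library, WT1, by about 1 normalized count, so the groups were separate by the least of margins. The log2 difference was 0.37 (SE 0.20, unadjusted p = 0.100, adjusted p = 0.915 in limma). It was 0.02 within replicate 1 and 0.54 within replicates 2 and 3. Of the 50-base windows of the Ndufb4 transcript 37.0% also occur in transcripts of other genes, above all its processed copy Ndufb4c, so its count is uncertain to the extent that reads were assigned between the copies.

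Ndufa13 (chr8:69894180-69902558), an accessory subunit also known as GRIM-19, had 549, 428 and 367 normalized counts in the WT libraries and 620, 495 and 547 in cKO. The groups overlapped because WT1 stood above cKO2 and cKO3. Within each replicate number the cKO library was the higher, but same-numbered libraries are not known to be pairs. The log2 difference was 0.32 (SE 0.18, unadjusted p = 0.104, adjusted p = 0.915 in limma), 0.18 within replicate 1 and 0.39 within replicates 2 and 3. Some 29.98% of its exonic bases are overlapped by Tssk6 on the opposite strand, and the sources used here do not say whether counting used strand.

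The core subunits of complex I with nuclear genes carry its flavin and its iron-sulfur clusters. The 3 that form the NADH-oxidizing arm, Ndufv1, Ndufv2 and Ndufs1, all had a lower mean in cKO, with a median log2 difference of -0.18, under every scaling tried. Without WT1 or without cKO2 it was 2 of the 3. Ndufs1, the largest subunit of the complex, had 660, 624 and 607 normalized counts in the WT libraries and 531, 571 and 562 in cKO, with no overlap and a log2 difference of -0.18 (SE 0.12, adjusted p = 0.928 in limma). Of the 4 core subunits of the quinone-reducing part 1 had a lower mean in cKO, with a median log2 difference of 0.04. That count was 0 without WT1 or without cKO2, 4 without WT3, and 3 without cKO1 or under scaling by library totals. The 28 accessory subunits divided into 15 with a lower and 13 with a higher mean. The number with a lower mean was 5 without WT1, 7 without cKO2 and 20 without WT3, without cKO1 or under scaling by library totals.

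Complex II feeds electrons from the tricarboxylic acid (TCA) cycle into the chain, and all of its subunits are nuclear-encoded. Its median log2 difference of -0.16 was the lowest of the 5 complexes, it rested on 4 genes, and no member passed the test. The median was -0.05 without WT1, -0.06 without cKO2, -0.29 without cKO1, -0.26 without WT3, -0.09 without cKO3, -0.10 after quantile normalization and -0.24 under library totals. Sdhd (chr9:50596357-50603812), a membrane anchor that helps form the ubiquinone site, had 523, 514 and 420 normalized counts in the WT libraries and 429, 380 and 423 in cKO. WT3 fell inside the cKO range and the other WT libraries stood above it, for a log2 difference of -0.24 (SE 0.14, unadjusted p = 0.133, adjusted p = 0.926 in limma). The flavoprotein Sdha had 1732, 1693 and 1469 in WT and 1572, 1348 and 1293 in cKO, and its log2 difference was -0.22 (SE 0.14). The iron-sulfur subunit Sdhb and the anchor Sdhc differed by -0.10 and 0.03.

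Complex III showed the smallest spread of differences, from -0.11 to 0.12 over 9 genes with a median of -0.01, which was 0.03 after quantile normalization. The median was 0.14 without WT1, 0.06 without cKO2, -0.13 without WT3 and -0.17 without cKO1. Uqcrc2 (chr7:120635176-120659524), a core protein of the matrix side, had 1309, 1184 and 1121 normalized counts in the WT libraries and 1270, 1095 and 997 in cKO, which overlap. Its log2 difference was -0.11 (SE 0.14, adjusted p = 0.951 in limma). Cyc1 (chr15:76343523-76346260), cytochrome c1, which reduces cytochrome c, had 691, 596 and 450 in WT and 735, 486 and 666 in cKO, a log2 difference of 0.12 (SE 0.21, adjusted p = 0.967 in limma). Its spread between libraries of the same group was larger than the difference between the groups. Uqcrh gave 1132, 950 and 1029 in WT and 1165, 955 and 995 in cKO, a log2 difference of 0.00 with an interval of -0.31 to 0.31.

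In complex IV, the cytochrome c oxidase, 9 of 11 members with a mean of at least 10 had a lower mean in cKO and the median log2 difference was -0.05. After quantile normalization these were 4 of 11 and 0.01. Without WT1 or without cKO2 the count was 2 of 11, with medians of 0.04 and 0.07. Cox7a2 (chr9:79755361-79759878), a small subunit of the oxidase, had 590, 386 and 371 normalized counts in the WT libraries and 526, 307 and 359 in cKO. Both replicate 1 libraries were far above the rest, and the log2 difference was -0.18 (SE 0.25, adjusted p = 0.952 in limma), turning to 0.03 without WT1. Cox7c (chr13:86044816-86046904), another small subunit, had 339, 362 and 364 in WT and 341, 372 and 429 in cKO, a log2 difference of 0.10 (SE 0.14, adjusted p = 0.960 in limma). It was 1 of 2 members for which both replicate 1 libraries stood below the other 4. Cox7c shares 53.0% of its 50-base windows with transcripts of other genes.

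Complex V is built from the F1 head, the c ring, the peripheral stalk and small membrane subunits. Of the 17 genes named for it 2, Atp5s and Atp5sl, are not subunits. Of the 5 F1 subunits 4 had a lower mean in cKO, as did all 4 peripheral stalk subunits (Atp5f1, Atp5h, Atp5j and Atp5o, median log2 difference -0.11), under every scaling tried. The median of the stalk subunits was -0.05 after quantile normalization and -0.19 under scaling by library totals. Without WT1 these counts were 2 and 2, and without cKO2 they were 2 and 1. The 3 small membrane subunits Atp5j2, Atp5k and Atp5l had a higher mean, with a median of 0.06, and a lower one when libraries were scaled by their totals alone. Atp5c1 (chr2:10056016-10080510), the gamma subunit that turns within the F1 head, had 1468, 1509 and 1502 normalized counts in the WT libraries and 1420, 1220 and 1336 in cKO. All WT libraries exceeded all cKO libraries, by a log2 difference of -0.17 (SE 0.12, adjusted p = 0.928 in limma). Atp5d (chr10:80138632-80145818), the delta subunit of the same central stalk, had 814, 657 and 558 in WT and 933, 697 and 795 in cKO, a log2 difference of 0.26 (SE 0.18, adjusted p = 0.928 in limma). Its groups overlapped through WT1, and the difference was 0.20 within replicate 1 and 0.30 within replicates 2 and 3. Atp5f1, subunit b of the stalk, had 1371, 1547 and 1434 in WT and 1350, 1304 and 1366 in cKO, with a log2 difference of -0.11 (SE 0.12). The WT minimum and the cKO maximum of Atp5f1 lay less than 5 normalized counts apart. Atp5s had 21.2, 22.4 and 21.4 in WT and 30.9, 24.7 and 28.6 in cKO, a log2 difference of 0.35 (SE 0.31) at the lowest count of the 77 members.

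Several subunits exist as isoforms whose balance differs between tissues, and here the ubiquitous forms made up nearly all transcripts in both groups. Cox4i2, the form of subunit 4 known from lung and low oxygen, had 3 reads in WT1, 1 in cKO2 and 0 in the other 4 libraries, while Cox4i1 had 2093, 1765 and 1447 normalized counts in the WT libraries and 2157, 1323 and 1661 in cKO. Cox6a2, the heart and skeletal muscle form, had 1 read each in WT1 and WT3 and 0 of the 15759054 reads in cKO, with counting error alone allowing for up to 3 reads over the group. Cox6a1 had 776, 687 and 467 in WT and 809, 456 and 517 in cKO. Cox6b2, the testis form, had 0.854 to 7.58 normalized counts per library and made up 0.0846% to 0.643% of the Cox6b pair per length, against Cox6b1 at 1248, 1201 and 1065 in WT and 1310, 930 and 1134 in cKO. Cox8a, the ubiquitous form of subunit 8, had 625, 535 and 475 in WT and 603, 497 and 525 in cKO.

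The Cox7a family divides a subunit of complex IV from a factor that joins complexes III and IV into supercomplexes. Per length, that factor, Cox7a2l, made up 66.2% ± 6.24 of the family in WT and 68.3% ± 4.91 in cKO (SD, n = 3 each). Cox7a2 made up 33.1% ± 6.27 and 31.1% ± 4.80, and the muscle form Cox7a1 0.723% ± 0.0464 and 0.552% ± 0.310. Cox7a2l had 1414, 1439 and 1487 normalized counts in the WT libraries and 1516, 1395 and 1289 in cKO, without the high replicate 1 values of Cox7a2. Ndufa4, named for complex I and now placed in complex IV, had 774, 679 and 596 in WT and 742, 577 and 764 in cKO, and its paralog Ndufa4l2, known as a hypoxia-induced gene, made up 0% to 0.213% of the pair.

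The c ring subunit is made from 3 genes that encode the same mature protein behind different import sequences. Atp5g3 made up 52.2% ± 3.13 of the 3 per length in WT and 51.1% ± 2.25 in cKO, Atp5g2 44.3% ± 3.35 and 45.1% ± 1.99, and Atp5g1 3.52% ± 0.227 and 3.83% ± 0.259. The normalized counts were 1152, 936 and 844 in WT and 1106, 835 and 878 in cKO for Atp5g3, and 849, 896 and 756 against 892, 778 and 831 for Atp5g2. Atp5g1 had 511, 418 and 363 in WT and 474, 429 and 464 in cKO. Library values of every isoform share given here overlapped between the groups. Atp5g2 shares 87.4% of its 50-base windows with transcripts of other genes, and the length taken for Atp5g1, 4715 bases, is the longest of the members, so these shares depend on the transcript chosen.

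The members differed more between replicate 1 and the other libraries than between genotypes. Centered on each gene's mean over the 6 libraries, the 77 members had median log2 levels of 0.21 in WT1, 0.00 in WT2 and -0.17 in WT3, and of 0.23 in cKO1, -0.21 in cKO2 and -0.05 in cKO3. For 57 of the 77 both replicate 1 libraries stood above the other 4 (74.0%), where 19.0% of all genes with a mean of at least 10 did so. Both stood below the other 4 for 2 members, against 16.3% of genes. The count was 27 of 36 in complex I, 2 of 4 in complex II, 9 of 9 in complex III, 9 of 11 in complex IV and 10 of 17 in complex V. The median log2 difference between replicate 1 and the other libraries was 0.35 for the members and 0.02 for all genes of that level. Within replicate 1 the cKO library differed from the WT library by a member median of 0.01, and within replicates 2 and 3 the difference was -0.05.

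**Figure D3:**
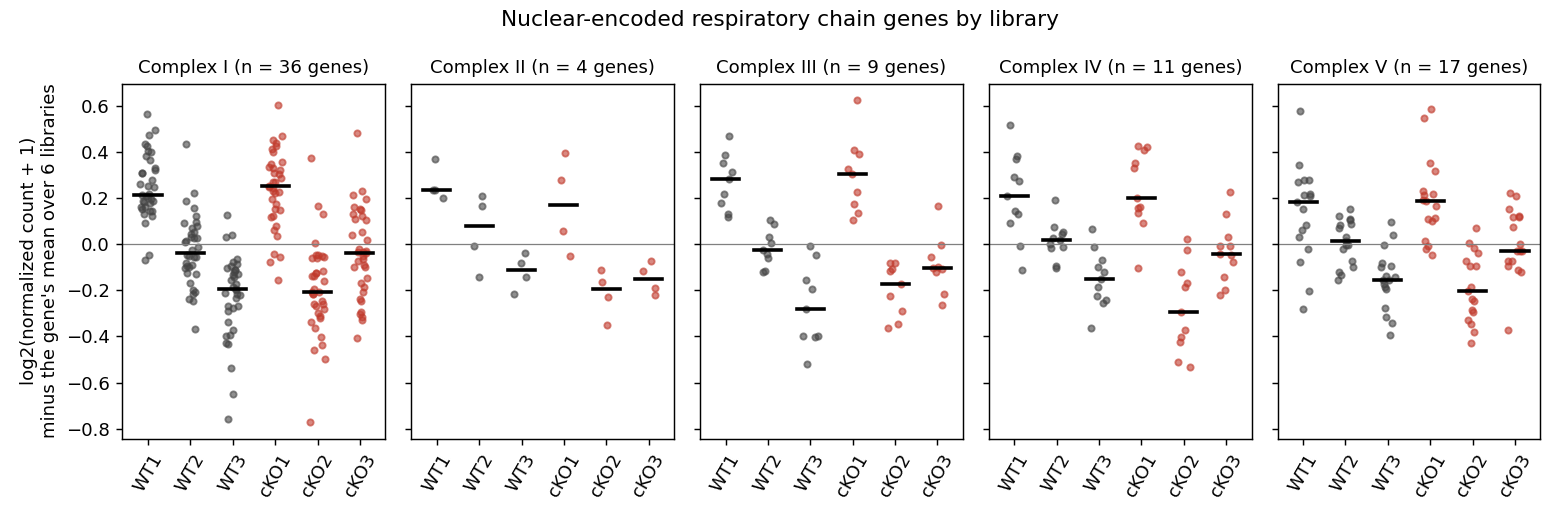
Log2(normalized count + 1) of each member minus its mean over 6 libraries, by complex and library (WT in grey, cKO in red); each point is a gene and bars are medians. Over all 77 genes the medians are 0.21 in WT1 and 0.23 in cKO1 and lie between -0.21 and 0.00 in the other 4 libraries.

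The gap was widest for the epsilon subunit of ATP synthase, Atp5e, with 875, 540 and 463 normalized counts in the WT libraries and 880, 467 and 453 in cKO. The replicate 1 libraries of both genotypes were close to each other and the other 4 lay together far below, a log2 difference of 0.87 between replicate 1 and the rest. The complex I core subunit Ndufs7 (261, 182 and 118 in WT and 282, 137 and 188 in cKO) and the small complex III subunit Uqcr10 (494, 329 and 249 in WT and 550, 277 and 333 in cKO) differed by 0.82 each. By contrast Ndufs1 differed by 0.00 and Atp5c1 by 0.06. Of the 40 members with no 50-base window in another gene's transcripts, 30 had both replicate 1 libraries on top, with a median of 0.34. The count was 15 of 17, with a median of 0.36, for members with up to 10% of windows shared, and 12 of 20, with 0.27, for those with more. The latter include 9 with over 30%, of which 4 did, with a median of 0.15.

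Values of other groups of genes moved across the libraries in the same or the opposite direction. Dividing-cell markers had median centered levels of 0.71, 0.29 and -0.43 in WT and 0.53, -0.90 and -0.21 in cKO, so that, as with the respiratory chain, WT1 and cKO1 were highest and cKO2 and WT3 lowest. All 10 of these markers were detected and their summed normalized counts ran from 14588 to 26299 in WT and from 10014 to 21371 in cKO. The part of cell division, or of depth, which is also greatest in replicate 1, in the members' values was not tested. The 18 genes of pyruvate dehydrogenase and the TCA cycle, which supply the chain with NADH and succinate, had median levels of 0.19, 0.15 and -0.15 in WT and 0.10, -0.18 and -0.08 in cKO.

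**Figure D4:**
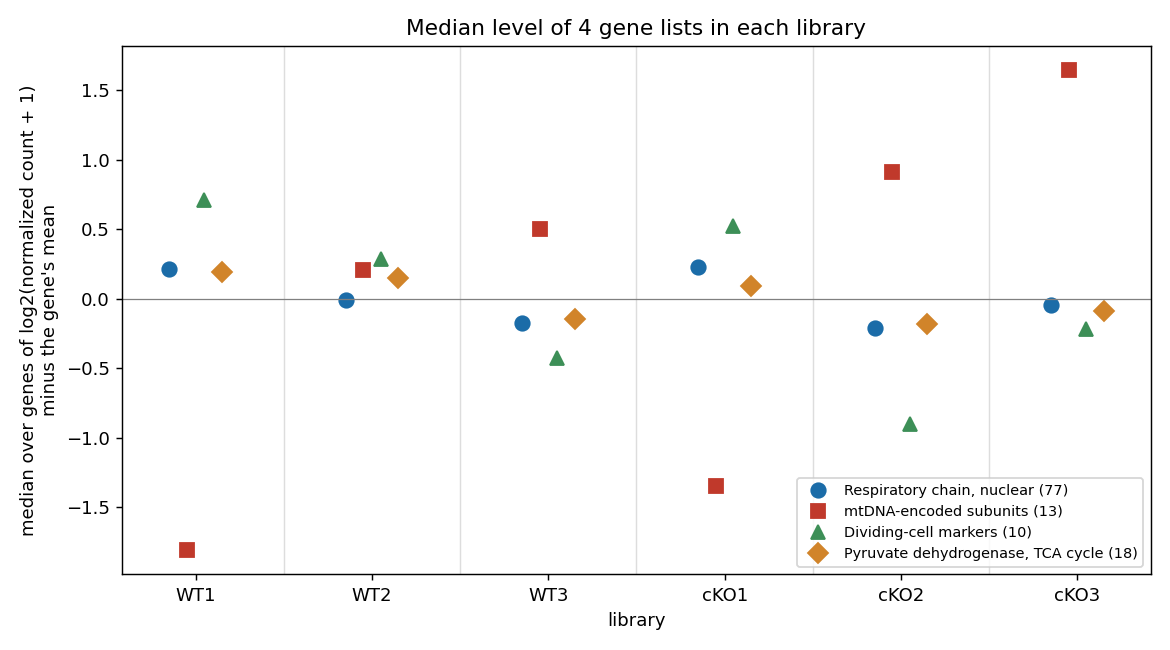
Median over genes of the centered log2 level of 4 gene lists in each library; the number of genes is in the legend. Nuclear respiratory chain genes and dividing-cell markers are highest in WT1 and cKO1, where subunits encoded by mitochondrial DNA are lowest (-1.81 and -1.35).

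The subunits encoded by mitochondrial DNA, partners of the members in the same complexes, stood the other way round. Their 13 genes had median centered levels of -1.81, 0.21 and 0.50 in WT and -1.35, 0.91 and 1.65 in cKO. Their summed normalized counts were 2.23, 7.80 and 11.1 times those of the nuclear members in WT1, WT2 and WT3 and 3.03, 15.1 and 22.8 times in cKO1, cKO2 and cKO3, so that the ratio ranged more widely within each genotype than between them. All 13 had a higher mean in cKO, with a median log2 difference of 0.81, and none reached an unadjusted p of 0.05 in limma. Without WT1 the number with a higher mean in cKO was 6 and without cKO3 it was 7, with medians of -0.03 and 0.03. For 12 of the 13 both replicate 1 libraries stood below the other 4.

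The gap between replicate 1 and the other libraries was uneven from gene to gene. The mt-Atp8 gene, which encodes a small membrane subunit of ATP synthase, had 1.52 and 4.88 normalized counts in WT1 and cKO1 and 1834 to 5055 in the other libraries, a ratio of means of 927. Its neighbour in the synthase, mt-Atp6, had 63.7 and 92.2 in WT1 and cKO1 and 2043 to 7758 elsewhere, a ratio of 51.4. In complex I, mt-Nd3 and mt-Nd4l had ratios of 54.2 and 49.5, and in complex IV, mt-Co3 and mt-Co2 had 38.3 and 20.0. Ratios were far smaller for other genes, at 4.12 for the catalytic oxidase subunit mt-Co1, 3.85 for the complex III cytochrome b gene mt-Cytb and 1.42 for the complex I gene mt-Nd6. None of the 77 nuclear members differed between replicate 1 and the rest by more than a log2 of 0.87. The labels give no batch, and the cause of the difference between genes was not tested.

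**Figure D5:**
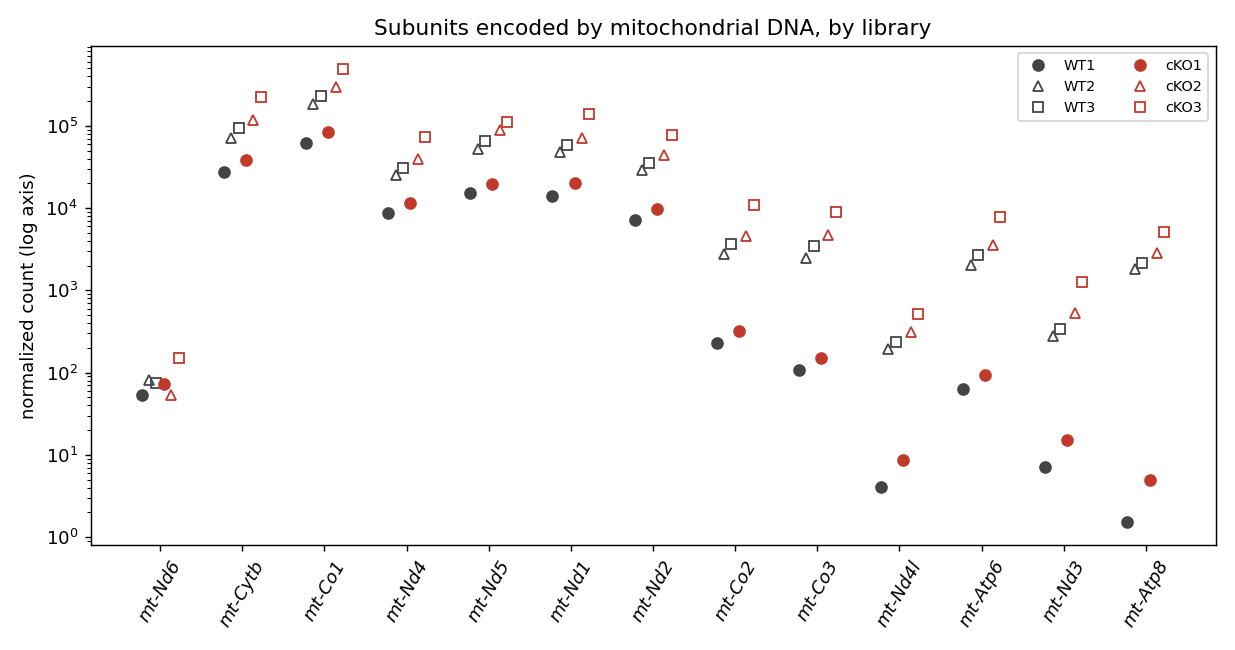
Normalized counts (log axis) of the 13 respiratory chain genes of mitochondrial DNA in each library, ordered by the ratio of the other libraries to replicate 1; filled circles are WT1 and cKO1, open symbols replicates 2 and 3. The ratio goes from 1.42 for mt-Nd6 to 927 for mt-Atp8.

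Among the genes that build and regulate the chain, none passed adjusted p of 0.05 in limma, and 3 of the 15 tested regulators of mitochondrial gene expression had an unadjusted p under 0.05, all with a higher mean in cKO, against 2.98% of all tested genes on that side and 2.17% on the other. Groups that do not overlap, as in several genes below, were found for 6.28% of all tested genes with higher and 5.28% with lower values in cKO. Esrra, the estrogen-related receptor alpha, which activates respiratory chain genes, had 87.0, 97.9 and 94.0 normalized counts in the WT libraries and 137, 156 and 137 in cKO, with no overlap and a log2 difference of 0.62 (SE 0.18, unadjusted p = 0.00736, adjusted p = 0.915 in limma). Pprc1, a coactivator related to PGC-1alpha, had 297, 270 and 290 in WT and 340, 393 and 441 in cKO, again apart, with a log2 difference of 0.45 (SE 0.15, adjusted p = 0.915 in limma). Polrmt, the RNA polymerase of mitochondria, was the third, with a log2 difference of 0.47 and no overlap, and is named after its values were seen. The NRF1 gene Nrf1 and the GABP subunit gene Gabpa, whose motifs were searched above, differed by -0.08 and -0.25, and only Gabpa had groups apart, with 631, 800 and 732 in WT and 581, 600 and 627 in cKO.

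Assembly factors insert cofactors and join subunits. Of 15 tested factors of complex I, 7 had a lower mean in cKO and none an unadjusted p under 0.05. The methyltransferase gene Ndufaf7 had 129, 120 and 98.2 normalized counts in the WT libraries and 98.2, 77.8 and 94.0 in cKO (log2 difference -0.36, SE 0.21), and Ndufaf3 had 102, 63.9 and 64.1 in WT and 130, 81.6 and 89.9 in cKO (0.40, SE 0.28). Of 34 factors of complexes II to V 18 had a lower mean and none an unadjusted p under 0.05. Bcs1l, which inserts the iron-sulfur protein into complex III, had 61.7, 53.2 and 48.7 in WT and 68.3, 79.7 and 75.6 in cKO, with no overlap and a log2 difference of 0.45 (SE 0.22, adjusted p = 0.915 in limma). Sdhaf2, which attaches the flavin of Sdha, differed by -0.24 (SE 0.15).

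The genes that deliver electrons to the chain likewise held none with an unadjusted p under 0.05. Of 17 carriers and ubiquinone enzymes 5 had a lower mean in cKO. Gpd2, the mitochondrial glycerol-3-phosphate dehydrogenase, and Dhodh, the pyrimidine synthesis enzyme that reduces ubiquinone, differed by -0.32 (SE 0.18) and 0.32 (SE 0.21), and Dhodh had 84.9, 66.0 and 64.1 normalized counts in the WT libraries and 85.7, 87.3 and 94.0 in cKO. Of the 18 genes of pyruvate dehydrogenase and the TCA cycle 17 had a lower mean in cKO, with a median log2 difference of -0.09, where 50.2% of all tested genes were lower. The count was 11 without WT1 or without cKO2. The markers of dividing cells (10 of 10 lower, median -0.46) and of GC B cells (7 of 8 lower, -0.33) also had lower means in cKO and those of naive or memory B cells higher ones (8 of 8, 0.65), and their part in this count, or in the members' values, was not tested. Without cKO2 the numbers lower were 6 of 10 (-0.08), 6 of 8 (-0.22) and 2 of 8 (0.21), in the same order. Without WT1 they were 8 of 10 (-0.14), 7 of 8 (-0.31) and 1 of 8 (0.33). In the pyruvate dehydrogenase and TCA cycle list Dld differed by -0.20 (SE 0.13) and the citrate synthase gene Cs by -0.22 (SE 0.15). Of 8 peroxide defence genes 5 had a lower mean, and the peroxidase gene Gpx1 and the thioredoxin reductase gene Txnrd2 differed by 0.32 (SE 0.18) and -0.18 (SE 0.23). Of 6 subunit genes whose symbols fall outside the name rule 3 had a lower mean, with Ndufab1 at 0.11 (SE 0.15) and Higd2a at -0.11 (SE 0.16). Without cKO2 the numbers with a lower mean were 3 of 15 complex I factors, 10 of 34 other factors, 2 of 8 peroxide defence genes and 1 of these 6, and without WT1 they were 6, 12, 1 and 3.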

How the data were processed

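RNA of sorted GC B cells was sequenced in 6 libraries, grouped by their titles in the labels. The mm10 genome, the aligners TopHat2, HISAT and HISAT2, SAMtools, the counter HTSeq and DESeq2 appear in the submitters' processing notes, with no versions and no order. The authors deposited 1 table whose library columns hold a signal, the count divided by a size factor, and per the file headers also a log2 fold change with its error, a test score, and a p-value with its adjusted p-value, which is empty for 8022 genes. The sources used here do not give the annotation release, the strand setting or the treatment of reads with several matches.

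Every deposited value was a whole multiple of what 1 read is worth in its library (100% of values within 0.01 read; 0.506 to 2.04 normalized counts per read), so reads were recovered. limma 3.58.1 (R 4.3.3) with a mean-variance trend was run on log2(value + 1), over genes with a mean of at least 1, with genotype alone and Benjamini-Hochberg adjustment over all genes tested. On this scale differences of low genes are understated. Tests on recovered reads used edgeR 4.0.16 and DESeq2 1.42.0. limma was tested on simulated data. Positions, transcript sequences and lengths (1 transcript per gene, by APPRIS rank and coding length) came from GENCODE M21 (GRCm38), which held 19589 of the 19680 identifiers and all 82 members, and promoters from RefSeq. The NRF1 and YY1 letters are short cores, taken after longer forms had been searched. A group of libraries is said not to overlap another where its lowest value exceeds the other's highest.

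The members and lists were chosen with earlier results of these data known. Named genes follow a rule: Senp1, the 2 members of each complex with the smallest p (1 for complex II), isoform families, and 2 genes of each other list. Others named are extremes of a range or groups that did not overlap. The values of 1 member are not reported here. Alternatives were other pseudocounts, filters, scalings and tests, each library left out, the replicate number as a block, a term for replicate 1, and replicates 2 and 3 alone.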

Additional observations from a re-analysis of the deposited data

How the results depend on the processing

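No member passed adjusted p of 0.05 under any of the 18 alternatives run. Over all genes the count of 0 became 20 with DESeq2, 3 with a term for replicate 1 and 1 with the replicate number as a block. The log2 difference of Senp1 was -1.17 with DESeq2 (adjusted p = 2.78e-09) and -1.16 with the replicate 1 term (adjusted p = 0.0160), both past the threshold, while its adjusted p ranged from 2.78e-09 to 0.743 over the alternatives. Genes at an unadjusted p under 0.05 numbered 756, against 343 without WT2, 1359 without cKO1, 1333 under the block and 1345 with the replicate 1 term, and divided into 438 higher and 318 lower, or 274 and 399 when scaled by library totals alone.

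Differences near 0 changed sign under some settings, and the cause was not tested. After quantile normalization Cox4i1 was at 0.0347, Cox7a2l at 0.0082 and Cox8a at 0.0189. Under library totals Atp5g2 was at -0.0779 and Ndufa4 at -0.0588, under TMM Atp5g2 was at -0.0136, under edgeR Cox8a was at 0.0024, and with replicates 2 and 3 alone Atp5g2 was at -0.0335 and Cox8a at 0.0187. Over the libraries left out in turn the values ran from -0.238 to 0.114 for Cox4i1, -0.109 to 0.00775 for Cox7a2l, -0.0998 to 0.0982 for Cox8a, -0.0671 to 0.0555 for Atp5g2, -0.0732 to 0.148 for Ndufa4, -0.400 to 0.0334 for Cox7a2, -0.178 to 0.0694 for Atp5g3, -0.374 to 0.0390 for Cox6a1, -0.187 to 0.0599 for Cox6b1, -0.0506 to 0.294 for Cyc1 and -0.0217 to 0.224 for Atp5g1. Members with a lower mean in cKO numbered 16 without WT1 and 17 without cKO2, against 45.

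The labels call the mice paired without saying what pairs them. Deviations of same-numbered libraries correlated at 0.493, 0.0545 and 0.201, and WT2 correlated best with cKO3, so the block was not used as the pairing. Members at an unadjusted p under 0.05, 0 in the reported fit and all higher in cKO elsewhere, were Ndufa13 under the block (0.0377) and without WT1 (0.0228), Ndufa13 and Atp5d, 2 genes, with the replicate 1 term (0.0261 and 0.0481), and Ndufa13 and Ndufb4, 2 genes, with replicates 2 and 3 alone (0.0460 and 0.0454). Depth limits the low genes most in cKO2 and cKO3, where 1 read is worth 1.90 and 2.04 normalized counts.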
